A study of Mus musculus with 12 samples.

Results

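Liver RNA of mice that drank diethylnitrosamine (DEN, which alkylates DNA and causes liver cancer in rodents) together with ATRA (all-trans retinoic acid, the acid through which vitamin A acts on genes) for 2 days was compared with liver RNA of mice that drank DEN alone. Each group was 1 array, so the comparison used 2 of the 12 arrays of the series, and both lay on the same slide. Probes were kept when the scanner software marked them well above background on both arrays, which left 25551 of 55681 probes and 18923 of 34741 gene names. These 18923 genes are called measured here.

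The mice were wild-type male ICR mice, bought at 5 weeks of age and adapted for 1 week. DEN was at 80 mg/L in the drinking water, about 400 µg per day, and ATRA, dissolved in ethanol and dimethyl sulfoxide, was at 30 mg/L, about 150 µg per day. Beside the DEN and ATRA+DEN arrays, values are given for the vehicle array (water) and the ATRA array (ATRA, no DEN) of day 2, which lay on the same slide, and for the same 4 treatments at day 7. The vehicle is given as water, so whether the groups without ATRA also drank its solvents is not known from the labels, nor is whether an array held RNA of 1 animal or of a pool. At day 7 the arrays with and without ATRA lay on different slides, and for 3 of them one label field disagrees with the title, so those values are by title and serve only as description.

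ATRA acts by binding retinoic acid receptors, which sit as partners of retinoid X receptors on paired half-sites in DNA and switch on nearby genes. Among the best known targets are the genes that remove or store retinoids, so a cell exposed to retinoic acid raises its own breakdown of it. In the liver, hepatocytes process retinoids and make cholesterol, fatty acids and bile acids, while stellate cells store vitamin A. DEN becomes active in hepatocytes, where its DNA adducts switch on p53 target genes.

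A level below is log2 of the processed intensity minus the 75th percentile of the same array, so 0 is that percentile, and a difference is ATRA+DEN minus DEN on this log2 scale. With 1 array per group there was no test and no spread between animals. The only error at hand was that between spots of the same probe on an array, a median SD of 0.0653 on the DEN array and 0.0652 on the ATRA+DEN array, which gives an SD of 0.0923 for a difference between single spots. That error is technical. A difference of 2-fold (1 on the log2 scale) is used as a size, not as a call of significance.

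Stretches of promoter are shown first for the retinoid targets whose upstream bases held a paired receptor half-site, since this pair of half-sites is an element that retinoic acid receptors are known to bind, and for the cholesterol gene whose upstream bases held a sterol regulatory element. All are from RefSeq on GRCm38.p6, read 5′ to 3′ on the strand of the gene and ending at or before its start, with the motif in capitals. The half-site searched was AGGTCA itself, the variant GGGTCA, the variant AGTTCA or the variant GGTTCA, and a DR5 is a pair of them in the same direction with 5 bases between. The sterol element was TCACNCCAC. Both strands of the 250 bases before each start were searched.
Cyp26a1, DR5 on the opposite strand, chr19:37697736-37697807: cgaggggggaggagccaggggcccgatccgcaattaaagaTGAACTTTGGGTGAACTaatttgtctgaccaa
Rarb, DR5, minus strand, chr14:16575477-16575569: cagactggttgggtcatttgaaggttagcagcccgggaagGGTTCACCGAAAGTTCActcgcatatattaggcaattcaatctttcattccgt
Hmgcs1, sterol element, chr13:119690174-119690262: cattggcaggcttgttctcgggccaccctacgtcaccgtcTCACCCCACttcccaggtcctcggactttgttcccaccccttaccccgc

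The DR5 lay 32 bases before the start of Cyp26a1 and 53 bases before that of Rarb, and the sterol element 137 bases before that of Hmgcs1. A DR5 was present upstream of 28 of 27025 genes (0.104%), of 2 of the 177 genes with a promoter in the table that were at least 2-fold higher with ATRA+DEN, and of 0 of the 176 that were at least 2-fold lower. The 2 higher genes were Cyp26a1 and Rarb. The sterol element was present upstream of 331 genes (1.22%), and of 1 of the 17 cholesterol genes with a promoter searched. It was upstream of 2 of the 177 higher genes (1.13%) and of 2 of the 176 lower genes (1.14%). A pair of half-sites with 2 bases between (DR2) was also searched. It was upstream of 55 genes (0.204%), of 1 of the 177 higher genes and of 0 of the 176 lower genes. These are matches of letters and not measured binding.

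Across the 18923 measured genes the 2 arrays were close, with a Pearson correlation of levels across genes of 0.988, a median difference of -0.01 and 83.5% of genes within 0.5 of 0 on the log2 scale. ATRA+DEN was at least 2-fold higher for 381 genes (2.01% of those measured) and at least 2-fold lower for 338 (1.79%), together 3.8%. With normexp background correction of the raw spot signals, which pulls dim probes together, the counts were 174 and 156. Of the 381 and 338 genes, 208 and 214 had a named symbol, and the others were predicted genes or clones. At 4-fold the counts were 43 higher and 51 lower, and at 8-fold 14 and 17. On the same slide, ATRA minus vehicle had 285 of its measured genes at least 2-fold higher (1.55%) and 283 lower (1.54%). By title, ATRA+DEN minus DEN at day 7 had 2.54% higher and 2.55% lower, and ATRA minus vehicle at day 7 had 1.41% and 1.13%.

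**Figure D1:**
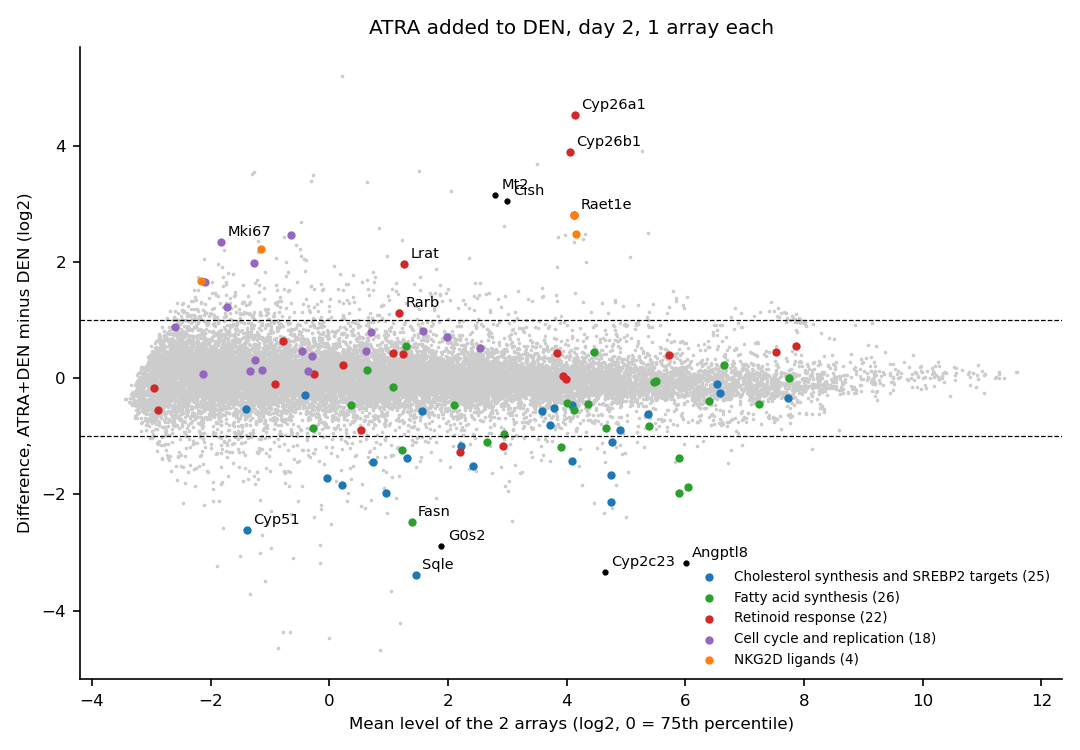
Each grey point is 1 of 18923 genes, with the mean of its levels on the DEN and ATRA+DEN arrays on the x axis and the difference, ATRA+DEN minus DEN, on the y axis, both log2; coloured points are members of 5 gene lists, and dashed lines mark 2-fold. Cyp26a1 (4.53) and Cyp26b1 (3.88) lie at the top and Sqle (-3.39) near the bottom, and all 25 cholesterol genes lie below 0.

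The genes that break down retinoic acid were among the highest, with Cyp26a1 the highest of the named genes that were above background on both arrays. Cyp26a1 and Cyp26b1 encode the cytochrome P450 enzymes that oxidise retinoic acid for removal. Cyp26a1 read 0.42 on the vehicle array, 6.63 on the ATRA array, 1.87 on the DEN array and 6.40 on the ATRA+DEN array, a difference of 4.53 or 23.1-fold between the last pair. Its probe lies on chromosome 19 at 37775566 to 37775625 of mm9. Cyp26b1 (chromosome 6, 84521952 to 84522011) read -0.24, 5.85, 2.12 and 6.00 in the same order, a difference of 3.88. For both genes the 2 arrays with ATRA were at about the same level, while the DEN array was above the vehicle array by more than 2-fold, so the ATRA difference was smaller with DEN (4.53 and 3.88) than without it (6.21 and 6.09). The third member of the family, Cyp26c1, was not above background on any of these 4 arrays.

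Among genes of retinoid storage, Lrat, the enzyme that turns retinol into the esters stored in stellate cells, read 0.12, 2.33, 0.28 and 2.24 on the vehicle, ATRA, DEN and ATRA+DEN arrays. Its difference was 1.96 with DEN and 2.21 without. Fabp5, a fatty acid carrier that also binds retinoic acid, went the other way, from 5.12 with DEN to 3.91 with ATRA+DEN. The remaining 8 measured members of the storage and transport list, including the plasma carriers Rbp4 (-0.06) and Ttr (-0.19), were all within 2-fold.

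Of 16 measured genes that make retinoic acid or its precursor, 4 were higher and 12 lower, with a median difference of -0.23, beside 51.9% of all measured genes lower. The retinol dehydrogenase genes Rdh11 and Rdh1 both differed by -1.14, with Rdh1 at -0.55 under normexp, and Aldh1a1, which makes retinoic acid from retinal, differed by -0.51. Dhrs3, which turns retinal back into retinol and is a known retinoid target, read 7.30 with DEN and 7.76 with ATRA+DEN, a difference of 0.46. Rarb, a receptor that is itself a retinoid target, read 0.09, 1.54, 0.62 and 1.73, and its difference of 1.11 was 1.52 by its other probe and 0.97 under normexp. The other 11 measured receptors and cofactors of the receptor list lay within 2-fold, among them Rara (0.05) and Rxra (-0.07). Of the 12, 9 were above 0, where 48.1% of all measured genes were. In the wider list of retinoid response genes, 22 of 29 were measured. Of these, 15 were higher and 7 lower, beside 48.1% and 51.9% of all genes. Past 2-fold were 5 higher and 2 lower (2.01% and 1.79% over all genes). The 5 higher ones were Cyp26a1, Cyp26b1, Lrat, Rarb and Raet1e, each also counted in another list here, so this list adds no further gene. No other measured member was 2-fold higher. The lower ones were the nuclear receptor gene Ppard (-1.17) and the clock repressor gene Bhlhe40 (-1.28).

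The Raet1 genes encode stress ligands that the NKG2D receptor of natural killer cells recognises, and the founding members were named for their early response to retinoic acid. Raet1e (chromosome 10, 21903525 to 21903584) read 6.09 with ATRA, 2.72 with DEN and 5.52 with ATRA+DEN, against a vehicle level within 0.01 of 0. Raet1b read 1.74, 5.92, 2.92 and 5.39. The 4 measured genes of the family were all past 2-fold higher with ATRA+DEN (2.01% over all genes). Their differences were 2.80 for Raet1e, 2.48 for Raet1b, 2.23 for Raet1c and 1.66 for Raet1a, the last of which was 0.64 under normexp. They are near-identical copies, so which copy a probe reads is uncertain and the 4 are not independent. For Raet1e and Raet1b, as for the Cyp26 genes, the DEN array lay above the vehicle array, and the ATRA differences were larger without DEN (6.09 and 4.18). Raet1c did not follow this order, and read -2.27 with DEN and -0.04 with ATRA+DEN but -5.28 with ATRA and -3.99 with vehicle, neither of which was above background. Ligands of the H60 and Ulbp groups were not above background on both arrays. H60a was above background with DEN (-2.68) and not with ATRA+DEN, and was at least 1.92-fold lower, against the direction of the Raet1 genes.

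Of the metallothioneins, small proteins that bind zinc and copper, Mt2 was higher. It read 2.26, 4.19, 1.23 and 4.37 on the vehicle, ATRA, DEN and ATRA+DEN arrays, so both ATRA arrays were above both others. Its difference was 3.15. Mt1 differed by 1.90 on one probe and by 0.18 on another, and is therefore uncertain. The other 7 measured genes of the zinc list, which are Mt3 (-0.12), the zinc transporters and the regulator gene Mtf1, lay between -0.69 and -0.02.

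**Figure D2:**
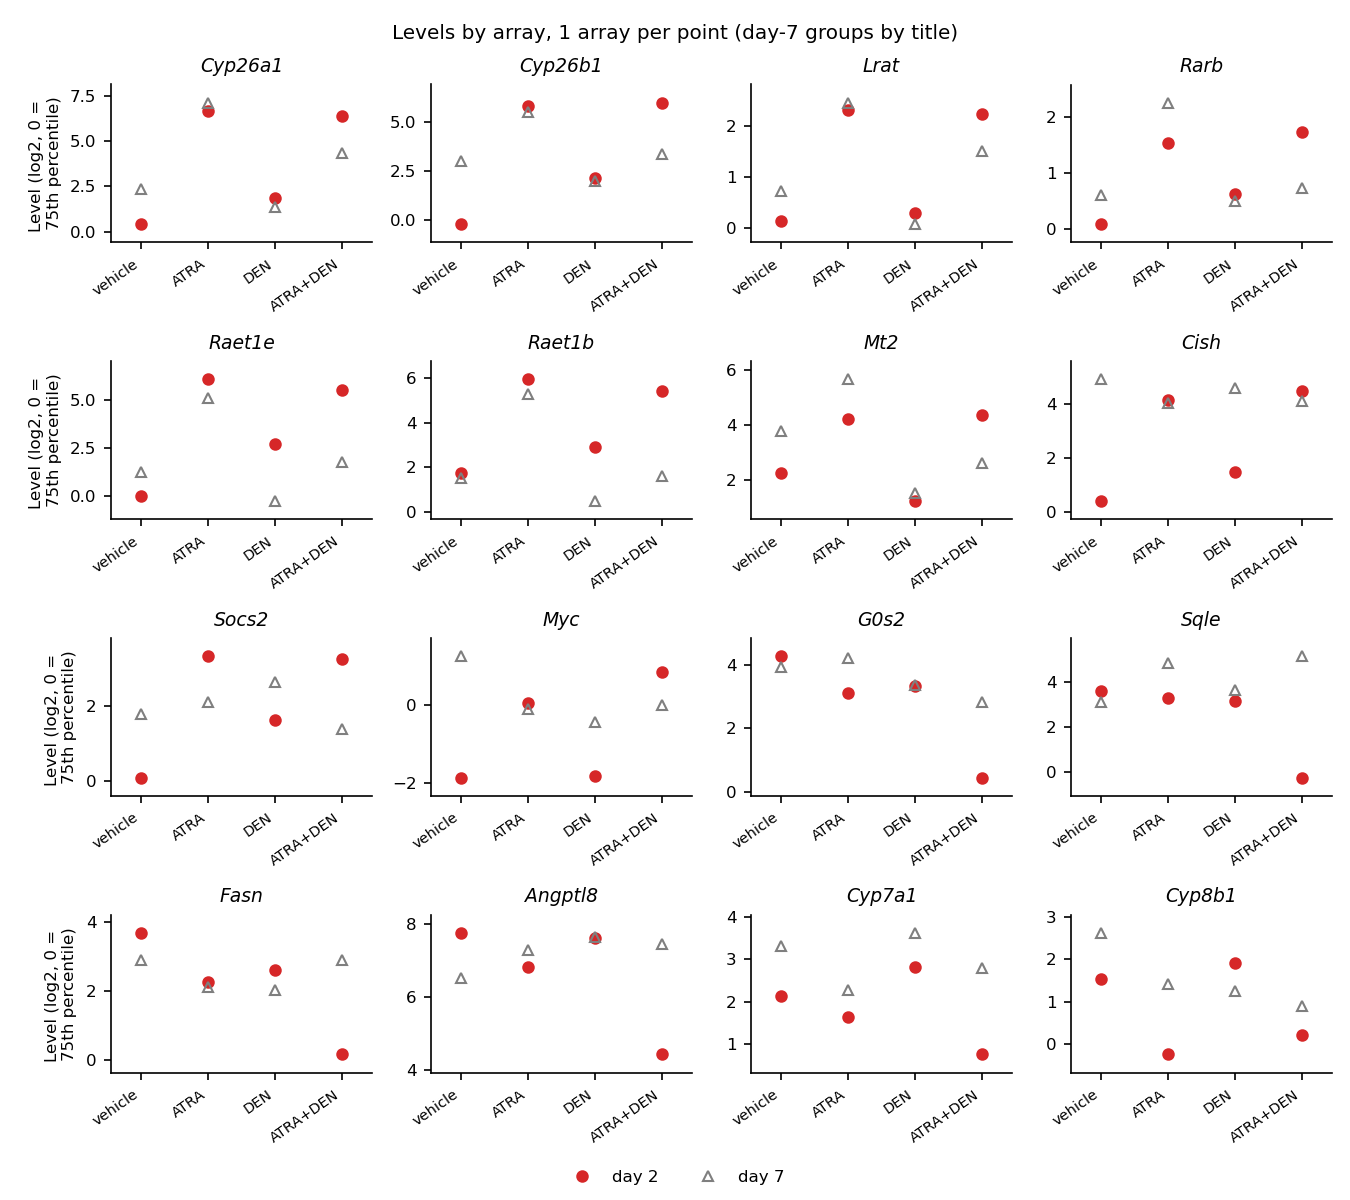
Levels of 16 genes, in log2 relative to the 75th percentile of each array (y axis, a scale of its own in each panel), on the vehicle, ATRA, DEN and ATRA+DEN arrays; red circles are day 2 and open triangles day 7, 1 array per point. At day 2 Cyp26a1, Cyp26b1, Lrat, Raet1e, Raet1b and Mt2 are high on both ATRA arrays, while G0s2, Sqle, Fasn and Angptl8 are low on the ATRA+DEN array and higher on the other 3.

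Genes of cholesterol synthesis were lower with ATRA+DEN throughout. All 25 genes of the list were measured and all 25 were below 0, where 51.9% of all measured genes were, with a median difference of -1.10, where the median of all genes was -0.01. Of them, 13 passed 2-fold, beside a background of 1.79%. On 24 of the 25 genes the ATRA+DEN array was the lowest of the 4 arrays of the slide. Sqle, squalene epoxidase (chromosome 15, 59162688 to 59162747), read 3.61, 3.31 and 3.15 on the vehicle, ATRA and DEN arrays and -0.24 on the ATRA+DEN array. The first 3 values span 0.5 log2 units or less, and the fourth was lower than DEN by 3.39 on that scale. Cyp51, the lanosterol demethylase, read 0.11, -0.39, -0.08 and -2.70. Fdps, which makes farnesyl diphosphate, read 6.34, 5.41, 5.81 and 3.67.

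Between mevalonate and cholesterol the other genes past 2-fold differed by -1.67 (Pmvk), -1.84 (Mvd), -1.18 (Fdft1), -1.44 (Lss), -1.43 (Msmo1), -1.73 (Nsdhl), -1.10 (Sc5d) and -1.37 (Dhcr7). Hmgcs1, which acts ahead of mevalonate, differed by -0.88, within 2-fold. Insig1, the sterol-induced retention factor of the endoplasmic reticulum, differed by -1.51. Srebf2, which encodes the transcription factor of this pathway, differed by -0.30. Without DEN, ATRA minus vehicle had a median of -0.36 over the same 25 genes, with 20 lower and 0 past 2-fold. At day 7 with DEN the median was 0.79, with 23 genes higher and 8 past 2-fold, and at day 7 without DEN it was 0.55, so the lower values of these genes with ATRA at day 2 were not seen at day 7, where each pair spans 2 slides.

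**Figure D3:**
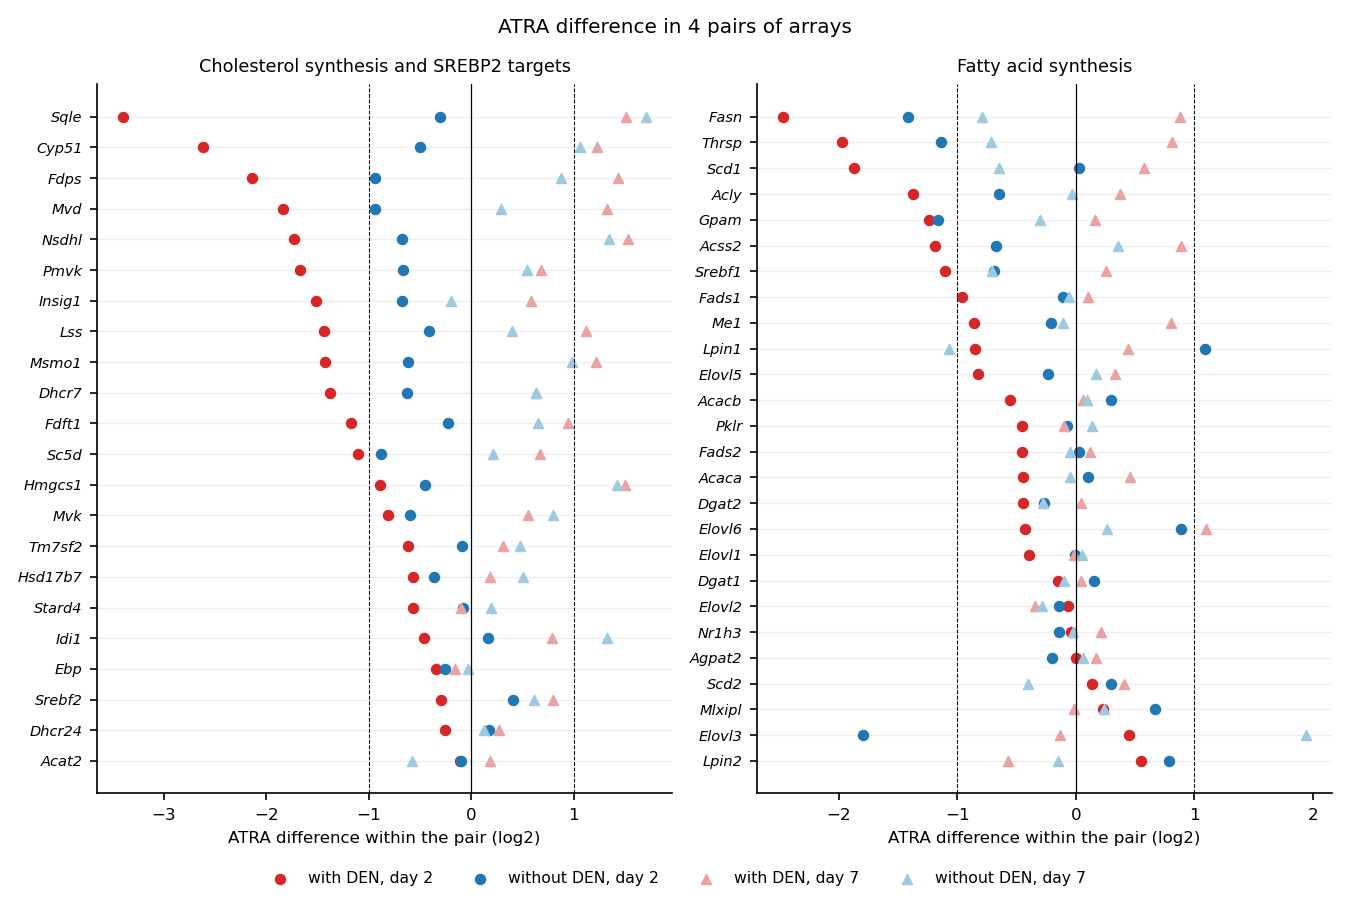
ATRA difference (x axis, log2) of 22 genes of the cholesterol list (left) and 26 genes of the fatty acid list (right) in 4 pairs of arrays; red and blue circles are day 2 with and without DEN, and pale triangles day 7, where the pairs span 2 slides. Dashed lines mark 2-fold; at day 2 with DEN all 22 cholesterol genes drawn lie left of 0, and at day 7 with DEN 20 of them lie right of it.

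Fatty acid synthesis followed the same direction less widely. Of 26 genes, all measured, 21 were lower and 5 higher, where 51.9% of all measured genes were lower. The median was -0.46, and 7 passed 2-fold lower (background 1.79%) and 0 higher. Fasn, the fatty acid synthase, read 3.69, 2.27, 2.62 and 0.15 on the vehicle, ATRA, DEN and ATRA+DEN arrays, a difference of -2.47. Thrsp, a lipogenic protein induced by thyroid hormone and carbohydrate, read 8.27, 7.13, 6.88 and 4.90. Scd1, the stearoyl-CoA desaturase, read 7.46, 7.49, 6.98 and 5.10. For these 3 genes the ATRA+DEN array was the lowest of the 4.

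Acly, which supplies acetyl-CoA from citrate, differed by -1.37, Gpam, the first enzyme of triglyceride assembly, by -1.24, Acss2 by -1.19 and the regulator gene Srebf1 by -1.10. The acetyl-CoA carboxylase genes Acaca (-0.45) and Acacb (-0.56) and the carbohydrate-responsive regulator gene Mlxipl (0.23) were within 2-fold. Aacs, which makes acetoacetyl-CoA for lipid synthesis, was among the largest differences of all named genes and read 5.77, 4.69, 4.32 and 1.85. Angptl8, a secreted inhibitor of lipoprotein lipase that is made after feeding, read 7.75, 6.82, 7.60 and 4.42, a difference of -3.19. Pnpla3, a lipid droplet protein whose gene is switched on with lipogenesis, read 0.43 with DEN and was not above background with ATRA+DEN, which puts it at least 16.3-fold lower. Without DEN, ATRA minus vehicle had a median of -0.13 over the 26 fatty acid genes, with 4 at least 2-fold lower, Fasn (-1.42) and Thrsp (-1.14) among them. At day 7 with DEN the median of the 26 genes was 0.19, with 20 higher and 6 lower. At day 7 without DEN it was -0.05, with 9 higher and 17 lower, and both day-7 pairs span 2 slides.

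G0s2, the inhibitor of adipose triglyceride lipase and the gene targeted elsewhere in the series, read 4.29 with vehicle, 3.12 with ATRA, 3.33 with DEN and 0.44 with ATRA+DEN. Its probe lies on chromosome 1 at 195098925 to 195098984 of mm9. The ATRA+DEN array was the lowest of the 4 and 2.89 below DEN, or 7.41-fold, whereas ATRA minus vehicle was -1.16. By title, the ATRA difference of G0s2 at day 7 was -0.56 with DEN and 0.28 without. The lipase gene itself, Pnpla2 (0.52), its activator gene Abhd5 (0.18) and the droplet coat gene Plin2 (-0.48) were within 2-fold. Cidec, which fuses lipid droplets, differed by 1.07, at levels below 0 on both arrays, and by 0.45 under normexp. Hsd17b13, an enzyme of the droplet surface, had a probe at 1.14 and another at -3.16, so no direction is given for it. Of 19 measured droplet and lipolysis genes, 7 were higher and 12 lower, beside 48.1% and 51.9% of all genes.

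The median of the fatty acid oxidation list lay near the centre of the distribution, at -0.09. Of 28 measured genes, 11 were higher and 17 lower, beside 48.1% and 51.9% of all genes. Past 2-fold were 0 higher and 1 lower (2.01% and 1.79% over all genes). That gene, Cyp4a14, a fatty acid hydroxylase under the receptor PPAR alpha, read -1.18, 2.08, 3.57 and 1.93 on the vehicle, ATRA, DEN and ATRA+DEN arrays. The next lowest were Pdk4 (-0.90), Cyp4a10 (-0.86), Cyp4a31 (-0.85) and Acot1 (-0.84), all within 2-fold. Cpt1a, which brings fatty acids into mitochondria, had the highest difference of the list, 0.43. Acot2 and Fgf21 were above background with DEN and not with ATRA+DEN, and were at least 2.04-fold and 1.88-fold lower.

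Of 23 measured genes of bile acid synthesis and transport, 11 were higher and 12 lower, beside 48.1% and 51.9% of all genes. The 2 that passed 2-fold lower (1.79% over all genes) are the key synthesis enzymes Cyp7a1 and Cyp8b1. Cyp7a1, the rate-limiting enzyme, read 2.13, 1.63, 2.82 and 0.76 on the same 4 arrays, and Cyp8b1, which makes cholic acid, read 1.53, -0.25, 1.90 and 0.21. Their differences were -2.07 and -1.70. For Cyp8b1 both ATRA arrays were below both others, with a like difference without DEN (-1.78), whereas Cyp7a1 differed by -0.50 without DEN. The uptake transporter gene Slco1a4 was higher, from -0.89 with DEN to 1.05 with ATRA+DEN. The list as a whole had a median of -0.02, and Nr0b2, the repressor known to lower Cyp7a1, differed by -0.19.

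In glucose metabolism, Pck1, the entry enzyme of gluconeogenesis, read 5.39, 7.70, 5.34 and 6.59, and Igfbp1, a secreted binder of insulin-like growth factors that is high in fasting, read 0.37, 1.83, 1.17 and 2.35. In both genes the 2 ATRA arrays were above the 2 others. G6pc, the last step of glucose release, was lower by 1.14 on the log2 scale and the glycogen-targeting gene Ppp1r3c by 1.51. The 14 genes of the urea cycle and ammonia list were all within 2-fold, the widest of those lower being Arg1 (-0.37).

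Cytochrome P450 genes gave large single differences. Cyp2c23, an enzyme that oxidises arachidonic acid, read 6.90, 5.92, 6.32 and 2.97, a difference of -3.35. Cyp2a4, a steroid hydroxylase, read 8.60, 7.58, 6.19 and 3.81. Cyp3a44 differed by -1.89. P450 genes of one subfamily are close in sequence, so probes may share signal. Of 23 measured phase I genes, 2 were at least 2-fold lower and 0 higher (1.79% and 2.01% over all genes). Cyp3a11 (0.94) and the reductase Por (0.91) were just inside 2-fold higher. Several of the lower P450 genes belong to the list of genes that are higher in female than in male liver, where 8 of 11 measured members were lower, 4 past 2-fold, with a median of -0.79 (51.9% and 1.79% over all genes). The 18 measured male-biased genes had a median of 0.16 and none past 2-fold in either direction. Hao2, a peroxisomal hydroxyacid oxidase on the female-biased list, had the largest lower value of the named genes above background on both arrays, and read -3.96 with vehicle (not above background), 0.72 with ATRA, 1.45 with DEN and -3.19 with ATRA+DEN. The ATRA array was high and the ATRA+DEN array low, so the arrays did not order by ATRA.

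In the growth hormone and thyroid list, 13 of 19 measured genes were higher and 6 lower, beside 48.1% and 51.9% of all genes. The median was 0.25, and 3 and 2 passed 2-fold (2.01% and 1.79% over all genes). Cish, an inhibitor that STAT5 switches on, read 0.40, 4.15, 1.47 and 4.51 on the vehicle, ATRA, DEN and ATRA+DEN arrays, and Socs2, of the same family, read 0.08, 3.35, 1.64 and 3.28. The ATRA differences were 3.04 and 1.64 with DEN and 3.75 and 3.27 without. The probes of Socs2 gave 0.56 to 1.64. Stat5b (0.44) and Igf1 (0.08) were within 2-fold. Socs3, which is switched on by STAT3, read 0.45, 2.04, 0.31 and 1.95. In the thyroid part of the list, Thrsp is described above and Serpina7, the thyroxine-binding globulin gene, read -0.91 with DEN and -2.73 with ATRA+DEN. At day 7 the ATRA difference of Cish with DEN was -0.50 and that of Socs2 was -1.26.

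Among growth and stress genes that respond within hours, Myc read -1.87, 0.05, -1.83 and 0.86 and Gadd45g, a stress sensor gene, 3.46, 6.52, 3.07 and 5.54, so both were higher on both ATRA arrays. Atf3 (-2.18) and Ier2 (-1.62) were at least 2-fold lower, with the DEN array above the other 3 for both, and were -0.79 and -0.96 under normexp. Of the 19 measured genes of that list, 7 were higher and 12 lower, beside 48.1% and 51.9% of all genes.

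The p53 targets, known to respond to DNA damage, showed smaller ATRA differences. Cdkn1a, the cell cycle inhibitor p21, read 1.12, 2.13, 4.02 and 3.39, so the 2 DEN arrays were above the 2 others and ATRA+DEN was 0.63 below DEN. Mdm2, the ligase that degrades p53, read 3.51, 3.45, 4.74 and 4.81. Gdf15, a stress hormone gene, read 0.90, -0.15, 3.59 and 2.56, and Plk2 differed by -1.42. Under normexp these last 2 genes were within 2-fold, at -0.99 and -0.95. Of 29 measured p53 targets, 21 were lower and 8 higher, with a median of -0.19 and 2 past 2-fold lower, beside 51.9% lower and 1.79% past 2-fold lower over all genes. The DNA repair list had a median of 0.01. Fanca, of the crosslink repair pathway, differed by 1.02 and was 0.36 under normexp.

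Cell cycle genes were higher with ATRA+DEN, at low levels. All 18 measured members were above 0, where 48.1% of all measured genes were. Their median was 0.61, and 5 passed 2-fold (2.01% over all genes). Birc5, the mitotic survival protein survivin, read -0.68, 0.06, -1.88 and 0.58, and Mki67, the proliferation marker, read -1.84, -0.88, -2.99 and -0.66. Cdc20, which activates the anaphase ligase, differed by 1.98 (0.99 under normexp), and Mcm5, of the replicative helicase, by 1.65 (0.61 under normexp). For Birc5, Mki67, Cdc20 and Mcm5 the DEN array was the lowest of the 4 and the ATRA+DEN array the highest. The other gene past 2-fold, Cdca3 (1.22), was also highest with ATRA+DEN, but was lowest with vehicle (-2.44, against -2.34 with DEN). These genes were picked by the difference between the DEN and ATRA+DEN arrays, so such an order is partly fixed by the choice. Over the 18 genes the ATRA+DEN array was the highest on 13. A further 6 members were above background with ATRA+DEN and not with DEN, and were at least 3.29-fold (Aurka), 3.19-fold (Ccna2), 2.76-fold (Ccnb1), 2.74-fold (Ube2c), 2.72-fold (Cdk1) and 2.67-fold (Plk1) higher. The bound takes the dim array at the higher of the dim probe's own level and the lowest level of a probe above background there. More probes were above background on the ATRA+DEN array (50.7%) than on the DEN array (47.2%), and the part of this in the bounds was not tested. ATRA minus vehicle without DEN had a median of 0.35 over the 18 genes, with 0 past 2-fold. At day 7 with DEN, 17 of them were above background on both arrays and all 17 were higher. Their median was 0.94, and 7 passed 2-fold higher (2.54% over all genes there). At day 7 without DEN the median was 0.30 over 16 genes, with 1 past 2-fold, and both day-7 pairs span 2 slides.

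**Figure D4:**
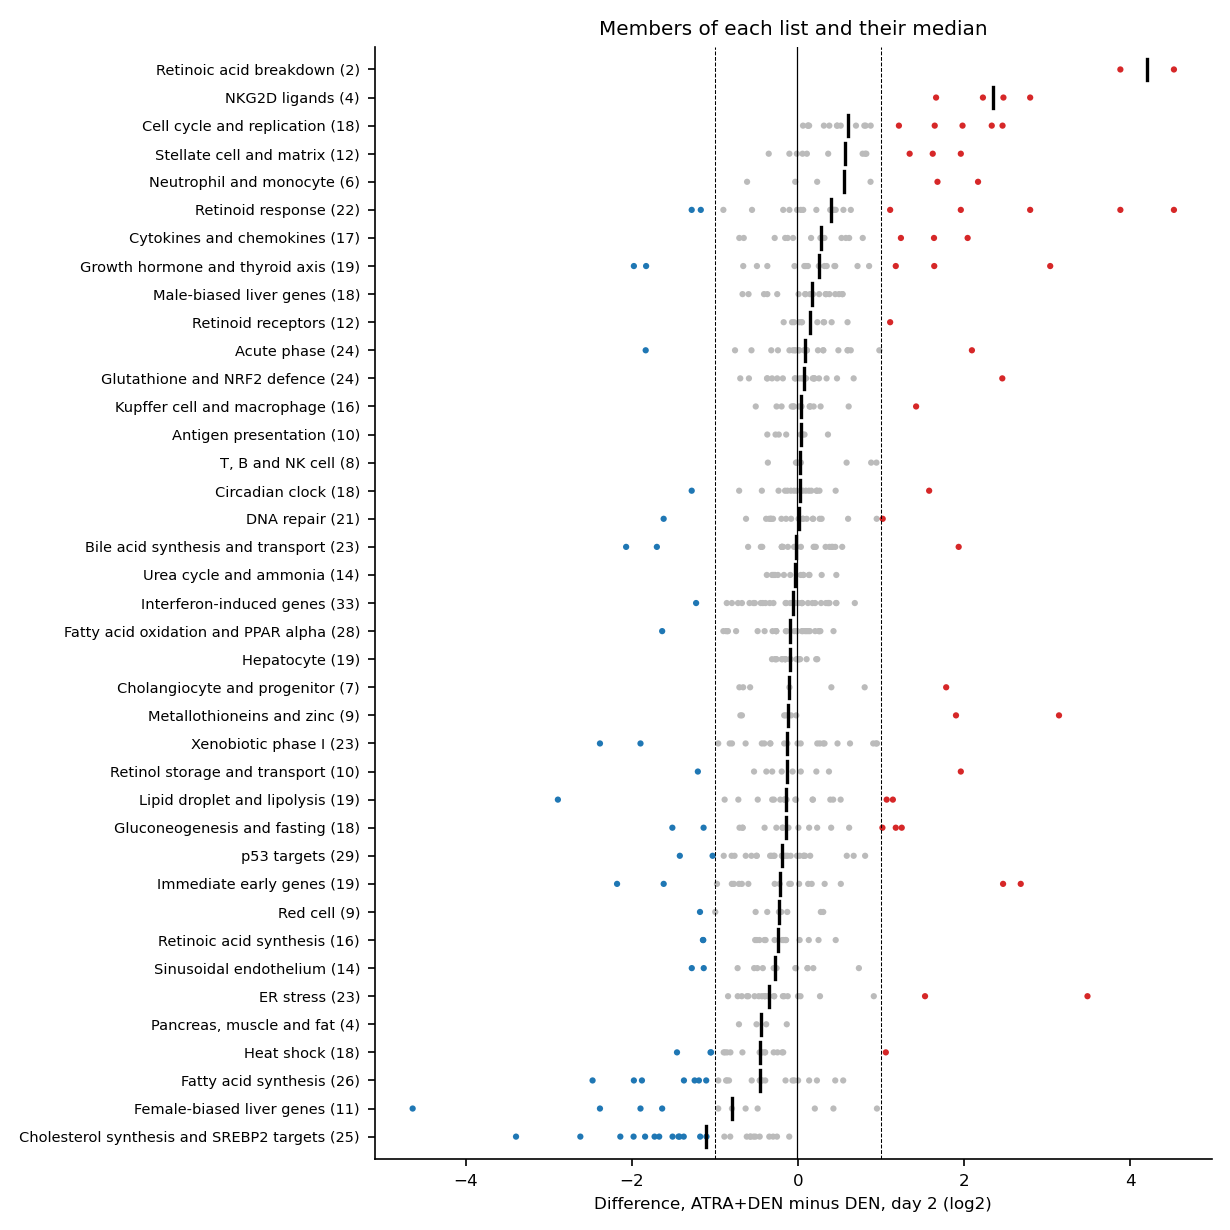
Each row is a gene list with its number of measured members in brackets, each point a member and each black bar the median; the x axis is the difference, ATRA+DEN minus DEN at day 2, in log2. Red and blue points are at least 2-fold higher and lower; the cholesterol list has the lowest median (-1.10), and retinoic acid breakdown (4.21) and NKG2D ligands (2.35) the highest.

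Protein folding genes were mostly a little lower. In the heat shock list 17 of 18 genes were lower, where 51.9% of all measured genes were, with a median of -0.45, and on 16 of them the ATRA+DEN array was the lowest of the 4. The mitochondrial chaperonin gene Hspe1 read 6.44, 6.29, 7.45 and 6.00, and Hsph1 (-1.05) and Dnajb1 (-1.04) were just past 2-fold. Hspa1a was the exception, 1.06 higher, and 0.49 under normexp. In the endoplasmic reticulum stress list 17 of 23 were lower (51.9% over all genes), none past 2-fold, and the chaperone gene Hspa5 differed by -0.43. Chac1, a glutathione-degrading enzyme switched on by ATF4, was at 3.49 and Trib3, another ATF4 target, at 1.53. Both were higher on both ATRA arrays of the slide, although Atf4 itself differed by -0.47.

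Detoxification by glutathione was near the centre, with a median of 0.08 over 24 measured genes. Gsta2, a glutathione transferase, was the member past 2-fold, and read 2.56, 2.47, 2.74 and 5.21. Gstp3, a transferase of another class outside the list, read 0.45, 0.44, 1.66 and 5.35. In both, the ATRA+DEN array stood above the other 3 of the slide. By title, Gstp3 read 6.48 on the vehicle array of day 7. Its ATRA difference at day 7 was 0.10 with DEN and -5.00 without, so its higher level was not particular to ATRA+DEN. The NRF2 target Nqo1 differed by 0.26.

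Immune genes were mixed. The interferon list had a median of -0.06 over 33 measured genes, with 15 higher and 18 lower (48.1% and 51.9% over all genes). Usp18, which curbs interferon signalling, was the member past 2-fold (-1.23, and -0.85 under normexp). Of 17 measured cytokine genes, 3 were at least 2-fold higher (2.01% over all genes). They were the chemokine receptor gene Cx3cr1 (2.05), Socs3 (1.64) and the neutrophil attractant gene Cxcl1 (1.24, and 0.91 under normexp). Among 24 acute phase genes, Orm3 differed by 2.10 and Apcs, the serum amyloid P gene, by -1.83, with a median of 0.08. The 10 measured antigen presentation genes were all within 2-fold. In the circadian list, with a median of 0.02 over 18 measured genes, the repressor gene Nr1d2 (1.58) and Bhlhe40 (-1.28) passed 2-fold.

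The labelled tissue was checked against its markers. The 19 hepatocyte markers were all measured, had a median of -0.10 and included none past 2-fold, and albumin (Alb) read 11.17 with DEN and 10.91 with ATRA+DEN. The Kupffer cell list had a median of 0.04 over 16 of 17 genes, with Clec4f at 0.15 and Adgre1 at 0.04. Of those 16, 1 was past 2-fold higher (2.01% over all genes), the scavenger receptor gene Marco (1.42). Lymphocyte markers had a median of 0.03 over 8 of 17 genes, with none past 2-fold and Ms4a1 and Cd8a not above background on both arrays. In bulk RNA, a change in the number of cells of a type and a change in RNA per cell cannot be told apart.

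Some marker lists differed between the 2 arrays. Of 6 measured neutrophil markers, 4 were higher and 2 lower, beside 48.1% and 51.9% of all genes. Their median was 0.55 and the lowest value -0.61. S100a8 (2.17) and S100a9 (1.68) passed 2-fold higher (2.01% over all genes). S100a9 read 1.49, 0.89, -0.21 and 1.47, so the DEN array was the lowest and the ATRA+DEN array matched vehicle. The summed intensity of the 6 measured neutrophil markers, relative to the 75th percentile, was 183 with vehicle, 185 with ATRA, 182 with DEN and 215 with ATRA+DEN, and Mpo, Cxcr2 and Ngp of that list were not above background on either array of the pair. Retnlg and Ccr2 were above background with ATRA+DEN only, and were at least 2.49-fold and 2.68-fold higher. Of the stellate cell and matrix list, 9 of 12 measured genes were higher, where 48.1% of all measured genes were, with Col1a1 at 1.62, Col3a1 at 1.35 and a median of 0.57, and Lrat, described above, belongs to that list too. Desmin (Des) was not above background on both arrays. Of 14 measured endothelial genes, 4 were higher and 10 lower, beside 48.1% and 51.9% of all genes, with a median of -0.27. Fcgr2b (-1.28) and Gpr182 (-1.13) were past 2-fold lower (1.79% over all genes). Without DEN, ATRA minus vehicle had a median of -0.34 over these 14 genes, with 12 lower and 0 past 2-fold. Of 7 measured bile duct and progenitor markers, 3 were higher and 4 lower, with a median of -0.10. Spp1, the osteopontin gene, differed by 1.79, past 2-fold, where 2.01% of all genes were 2-fold higher. The ductal keratin gene Krt19 was within 2-fold (0.40). The part of these marker lists in the differences of the other genes was not tested.

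Pancreatic and red cell genes set the vehicle array apart on this slide. Over the 4 measured genes for pancreas, muscle or fat, the summed relative intensity was 25.6 with vehicle and between 7.35 and 9.76 on the other 3 arrays, and that of the 9 measured red cell genes was 605 with vehicle, 231 with ATRA, 101 with DEN and 98.6 with ATRA+DEN. The pancreatic enzyme genes Try4, Cpa1, Cpb1, Pnlip, Cela3b and Prss2 read 3.53, 2.49, 2.19, 2.01, 1.69 and 1.51 on the vehicle array and were not above background on the other 3. Within the pair, the 4 measured genes of the first list were all lower with ATRA+DEN, with a median of -0.44, and Cela2a was at least 4.03-fold lower. Of the 9 red cell genes 7 were lower, with a median of -0.23, and Hbb-b2 differed by -1.18. Over all measured genes 51.9% were lower. The differences given for the pair do not use the vehicle array, whereas every ATRA minus vehicle value at day 2 does, and the part of the vehicle array's other tissue genes in those was not tested.

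In many genes past 2-fold, the ATRA+DEN or the DEN array lay outside the other 3 arrays of the slide. These genes were picked by the difference between those 2 arrays, so such counts are largely fixed by the choice. The counts are given as description, and no share over all measured genes was computed. Of the 381 genes at least 2-fold higher, ATRA+DEN lay above all 3 other arrays of the slide for 283 and DEN below all 3 for 231. Of the 338 at least 2-fold lower, ATRA+DEN lay below all 3 for 235, DEN above all 3 for 228, and both for 132. Among the named genes with the largest lower values, Nradd read -3.48, -2.48, 1.52 and -2.85, and Gpr27, an orphan receptor gene, read -1.77, -1.61, 1.44 and -1.74. Id4, an inhibitor of helix-loop-helix factors, Iqck and Dcdc2a had the same shape, high on the DEN array and low on the other 3. For these genes the DEN array was the one apart. Meig1 read -1.89, -2.81, -0.28 and -3.51, highest with DEN and lowest with ATRA+DEN. Crym, which binds thyroid hormone in the cytosol, had another shape, with 1.01, -1.80, 1.27 and -1.59. Both ATRA arrays were below both others, and the difference was alike with DEN (-2.86) and without (-2.81).

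Other named genes at the upper end were Smpd3 (3.51), a sphingomyelinase, Akr1c18 (3.40), which inactivates progesterone, and Ly6a (3.22), the surface antigen Sca-1. Smpd3 read -1.95, -0.28, -3.06 and 0.45, so both ATRA arrays were above both others, whereas Akr1c18 read 1.40 on the ATRA+DEN array and between -2.26 and -1.77 on the 3 others.

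A further 1574 genes were above background with ATRA+DEN and not with DEN, and 446 the reverse, of which 115 and 192 had a bound of at least 2-fold. The largest bounds of named genes were for Camk2b, at least 59.7-fold higher, and for Sema3b, Enpp6 and Myh8, at least 85.6-fold, 84.5-fold and 83.7-fold lower. Camk2b read 2.87, 2.61 and 2.62 on the vehicle, ATRA and ATRA+DEN arrays, and the DEN array alone was dim. Sema3b and Enpp6 were above background on the DEN array only, and Myh8, a muscle myosin gene, on the DEN and vehicle arrays. Mrgpra2b, Wdr86, Slc4a5 and Ctse were above background only with ATRA+DEN on this slide, and Rin1 and Fsip2 only with DEN.

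The pair without DEN, ATRA minus vehicle at day 2, used 2 other arrays of the same slide and so can be set beside the pair with DEN. Over the 17961 genes above background on all 4 arrays, 345 were at least 2-fold higher with DEN, and 70 of these (20.3%) were also at least 2-fold higher without DEN, where 278 genes were (of which the 70 are 25.2%). Of 293 at least 2-fold lower with DEN, 45 (15.4%) were also lower without, where 253 were (of which the 45 are 17.8%). A smaller number went past 2-fold in opposite ways, 19 higher with DEN and 17 lower with DEN. The Pearson correlation of the differences across these genes, which are not independent, was 0.17. At day 7 with DEN, over 17021 genes, it was -0.17. Of 349 genes at least 2-fold higher at day 2, 25 were also at least 2-fold higher there (7.16%, and 5.85% of the 427 higher at day 7) and 43 at least 2-fold lower. Of 301 at least 2-fold lower at day 2, 18 were also lower there (5.98%, and 4.49% of 401) and 41 higher. For day 7 without DEN the correlation was -0.0066 over 16831 genes, and both day 7 pairs span 2 slides.

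**Figure D5:**
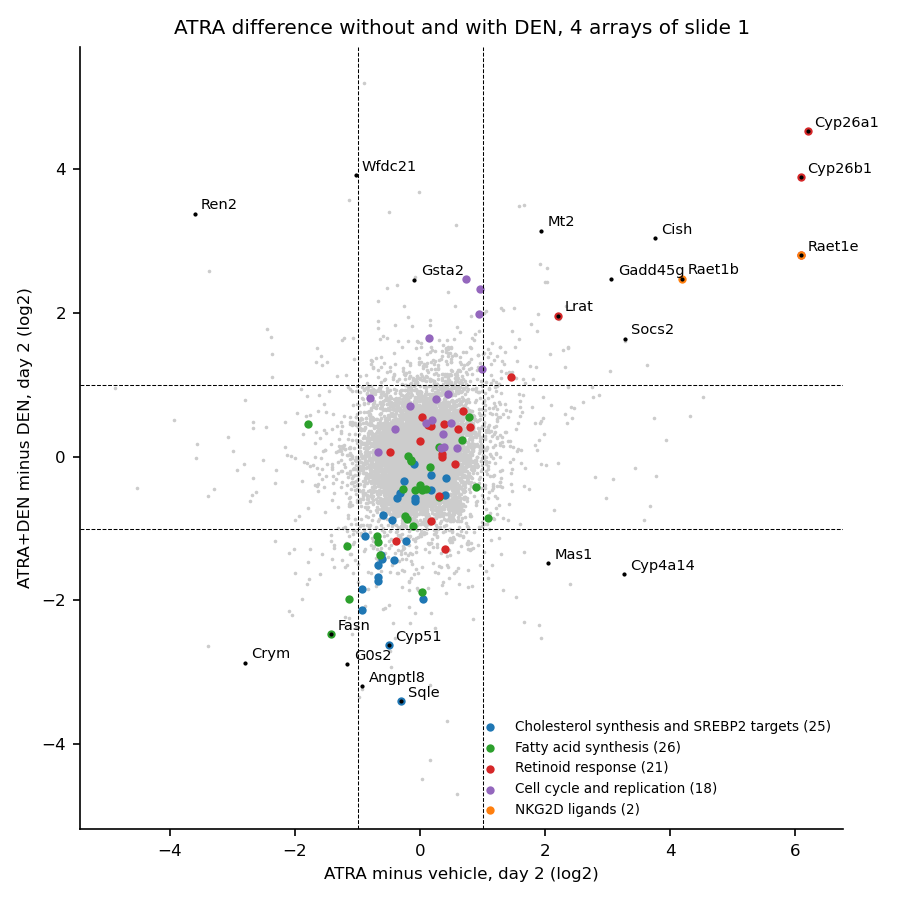
Each grey point is 1 of 17961 genes above background on all 4 arrays of the slide, with ATRA minus vehicle on the x axis and ATRA+DEN minus DEN on the y axis, both log2 at day 2; coloured points are members of 5 gene lists and dashed lines mark 2-fold. Cyp26a1, Cyp26b1, Raet1e and Cish lie at the upper right, while Sqle and Cyp51 lie low near the centre line of the x axis, with -0.30 and -0.50 there.

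Across both days, 6 of the 16272 genes that were above background in all 4 ATRA pairs were at least 2-fold higher in every pair. They were Cyp26a1, Cyp26b1, Lrat, Mt2, Raet1b and Raet1e. At day 7 with DEN their differences were 2.99, 1.42, 1.44, 1.08, 1.11 and 2.04, each below the value at day 2 with DEN. One gene, Cd207, a lectin of dendritic cells, was at least 2-fold lower in every pair, with -1.23 at day 2 with DEN, or -0.81 under normexp. Rarb was higher by 0.23 at day 7 with DEN and by 1.65 without.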

How the data were processed

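The deposited files hold spot intensities of 1-colour (Cy3) Agilent mouse arrays. Per the file headers the software had subtracted background, corrected spatial trends and replaced the dimmest spots by surrogates. The headers name Feature Extraction 10.7.1.1 (the submitters' processing notes name 9.5.1.1) and probe positions on mm9. A second deposited table, of linear intensities, was normalized by the authors with a method not given in the sources used here, and it was used as an alternative.

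Control and outlier spots were left out, spots of a probe were averaged on the log2 scale, and the 75th percentile of each array was subtracted. A gene was its probe with the highest mean level over the 12 arrays among those well above background on both arrays of the pair. Probes were named through RefSeq accession (27235), symbol (3581) or synonym (565), and 24300 are under the file's own name. Where the exon or UTR of a probe lies was not analysed here. No probe was saturated. There is 1 array per group, and this number limits the precision, so no test was run. A gene dim on 1 array of the pair was given a bound, the bright level over the higher of the dim probe and the lowest level above background on that array.

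The members, the 30 pathway lists and 9 marker lists were chosen with earlier results of these data known. Genes were named as follows: Cyp26a1, Cyp26b1, Rarb, Lrat, Dhrs3, Cdkn1a, Mdm2 and G0s2 always; the 15 largest differences each way with all probes of the gene on the same side of 0; up to 4 members of a list past 2-fold or up to 2 otherwise; the 5 largest bounds each way; and up to 5 genes each way past 2-fold in all 4 ATRA pairs or in opposite ways at day 2. Other members are given as context, chosen after their values were seen. Some genes are not reported here by name but stay in the counts and medians. Python 3.11.15, R 4.3.3 and limma 3.58.1 (normexp, as an alternative) were used, and the computation was tested on simulated data.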

Additional observations from a re-analysis of the deposited data

Results flagged for a closer look

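Several genes were at least 2-fold apart in both day-2 ATRA pairs but in opposite directions, and the difference between the pairs was not tested, since each group is 1 array. Wfdc21, a secreted protease-inhibitor-like protein, was 3.91 higher on the log2 scale when ATRA was added to DEN and 1.03 lower without DEN, and its level ranged from 2.15 to 8.69 over the 12 arrays. Ren2, the second renin gene of some mouse strains, was 3.38 higher with DEN and differed by -3.60 without. Nox4, an oxidase that makes hydrogen peroxide, was 1.77 higher with DEN and differed by -2.45 without. Fam171b (1.66 with DEN, -1.07 without) and the collagen gene Col1a1 (1.62 and -1.24) had the same directions.

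In the other direction, the transporter gene Slc22a13b differed by -1.86 with DEN and 1.33 without, the protease gene Tmprss4 by -1.78 and 2.39, the fatty acid hydroxylase gene Cyp4a14 by -1.63 and 3.26, the receptor gene Mas1 by -1.48 and 2.05, and the fatty acid transporter gene Slc27a1 by -1.35 and 1.29. On the DEN array Cyp4a14 read 3.57, above the other 3 arrays of the slide.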

How the results depend on the processing

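The counts of 381 genes higher and 338 lower moved with the background correction, to 174 and 156 with normexp, and with the filter, to 1744 and 1578 without it. They moved by construction with the threshold, to 1291 and 1137 at 1.5-fold and 89 and 104 at 3-fold. Quantile normalization over the slide, loess, centring on the median, the deposited table, all 4 arrays above background and the median over probes gave 346 to 396 higher and 293 to 360 lower. The median of the cholesterol list stayed between -1.10 and -1.03 and that of the fatty acid list between -0.47 and -0.43 under the 8 alternatives run on them. The cell cycle median was 0.45 with normexp and 0.81 without the filter, and that of the NKG2D ligands 1.78, 1.02 and, with all 4 arrays above background, 2.64. No list median changed sign. Hsd17b13 turned to -1.01 with the median over its probes, which disagree. Apart from the changes that follow from the number of genes tested or the threshold, the cause was not tested. Of 97 named genes past 2-fold, 79 stayed past it with normexp, and 95 to 97 under the other alternatives that measured them all. No paired analysis was possible because each group has 1 array, and for the same reason no array could be left out. Dim probes limit the low genes: 1574 and 446 genes have a bound only.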
